A study of Mus musculus with 16 samples.

Results

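Clock activators and D-box factors are 2 sets of transcription factors of the circadian clock, and their 9 genes were followed in the brains of mice that express human cholesteryl ester transfer protein (CETP) and received the CETP inhibitor evacetrapib or vehicle. The members were taken by gene symbol from the count table: the 5 clock activators Arntl, Clock, Npas2, Rora and Rorb, and the 4 D-box factors Dbp, Tef, Hlf and Nfil3. All 9 symbols were found among 55487 genes, and all 9 passed the filter on low counts that left 18609 genes for testing. RNA came from bulk brain tissue of 16 female mice in 4 groups of 4: CETPtg with vehicle, CETPtg with evacetrapib, APPtg/CETPtg with vehicle and APPtg/CETPtg with evacetrapib.

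Every mouse carried the human CETP transgene on a C57BL/6J background, so no group lacked CETP. The APPtg/CETPtg mice also carried human APP with the Swedish and Indiana mutations, which is driven in neurons by the Thy1 promoter. All mice were heterozygous for their transgenes and ate chow until 11 weeks of age, when the diet was changed to one with 1% cholesterol. Evacetrapib (30 mg/kg) or the vehicle, Kolliphor EL in glucose, was injected intraperitoneally each day for 11 weeks. Tissue was frozen without perfusion in the following week, with blood drawn 4 h after the last injection. The cerebrum was split into quadrants before freezing, and the methods of the paper do not say which gave the RNA. The clock hour at which each brain was taken is not given in the sources used here. The question was what CETP inhibition does to the brain in mice with and without the APP transgene.

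The circadian clock is a feedback loop of transcription. ARNTL (also called BMAL1) pairs with CLOCK or, in forebrain, with NPAS2 and binds E-box sequences, which turns on the Per, Cry, Nr1d and Dbp genes; the PER and CRY proteins then repress the same pair. RORA and RORB switch on Arntl through ROR elements, and the NR1D proteins compete with them there. DBP, TEF and HLF activate genes that hold a D-box, and NFIL3 represses through the same sequence. In brain, mRNAs of Arntl and of Dbp normally peak at opposite times of day.

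Totals of 21391335 to 55453789 counts per mouse were deposited. The CETPtg mice had 28626139 to 46800787 counts, and 7 of the 8 APPtg/CETPtg libraries were shallower than these. Values are given as CPM, the count scaled to the library size after TMM normalization. A gene is called where the adjusted p of edgeR's quasi-likelihood test over all genes was at most 0.05 and the fold change was at least 5%. App, where reads of the human APP transgene could be counted, measured 1968 to 2322 CPM in CETPtg and 1989 to 2720 CPM in APPtg/CETPtg mice, so these overlapping levels do not check the genotype labels. Markers of neurons, astrocytes, oligodendrocytes and microglia were all detected, with 6 of 6 genes of each list passing the filter. Each sample is 1 mouse. In bulk tissue, fewer cells of a type and less RNA per cell cannot be told apart.

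Sequences around the start sites of the members show where letters of the elements named above occur. All 9 members matched RefSeq start sites of GRCm38.p6, with 14 windows from 250 bases before to 50 after a start. They were searched on both strands for the E-box CACGTG, the ROR element TAGGTCA and the D-box letters TTANNTAA, where N is any base. The D-box letters leave the middle bases free, so a match does not by itself show a D-box that the factors bind. Among 32851 mouse windows of the same length, 2349 (7.15%) held the E-box, 1972 (6.0%) the D-box letters and 856 (2.61%) the ROR element. The stretches that held a match are shown with the match in capitals.
Tef, start site 1, chr15:81802479-81802571, plus strand: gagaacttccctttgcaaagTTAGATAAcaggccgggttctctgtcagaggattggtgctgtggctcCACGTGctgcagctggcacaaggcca
Tef, start site 2, chr15:81811256-81811301, plus strand: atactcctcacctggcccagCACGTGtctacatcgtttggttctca
Nfil3, start site 1, chr13:52981040-52981071, minus strand: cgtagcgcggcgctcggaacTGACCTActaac
Rorb, start site 2, chr19:19001185-19001232, minus strand: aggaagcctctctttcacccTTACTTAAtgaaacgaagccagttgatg
Arntl, start site 2, chr7:113207529-113207558, plus strand: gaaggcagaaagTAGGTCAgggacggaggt

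Tef held an E-box before both of its start sites, beginning 127 and 138 bases upstream. It also held a match to the D-box letters 174 bases upstream of the first. The ROR element of Nfil3 began 12 bases upstream and was read on the other strand. That of Arntl began 30 bases after its second start. The windows of Clock, Npas2, Rora, Dbp and Hlf held no match, which says only that these letters are absent from those 300 bases.

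By the GENCODE annotation of GRCm38, Arntl lies at chr7:113207465-113314126, Clock at chr5:76209868-76304792, Npas2 at chr1:39193731-39363236, Rora at chr9:68653786-69388246 and Rorb at chr19:18930605-19111196. Dbp lies at chr7:45705088-45710203, Tef at chr15:81802421-81826863, Hlf at chr11:90336536-90390895 and Nfil3 at chr13:52967209-52981073.

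The D-box activators stood highest in level. Compared per kilobase of annotated exon, the 3 D-box activators were the highest members and Rorb the lowest. Tef, the thyrotroph embryonic factor, had a median of 48.7 CPM per kilobase over the 16 mice (range 42.0 to 54.3), and Dbp had 47.2 (36.1 to 58.7). These ranges overlapped, and Tef was the higher of the pair in 9 of 16 mice. Hlf, the hepatic leukemia factor, followed at 26.5 CPM per kilobase (20.8 to 32.6), below Dbp in every mouse. Npas2 was the highest clock activator at 11.7 CPM per kilobase (9.61 to 13.5), and Clock came next at 6.41 (5.69 to 7.28). The ranges of Nfil3, Rora and Arntl overlapped, with medians of 4.02, 4.02 and 3.46 CPM per kilobase. Rorb had 1.65 CPM per kilobase (1.16 to 2.82) and was below Arntl in 16 of 16 mice. Within the tested genes, these levels placed Tef and Dbp at percentiles 95.1 and 94.9, and Rorb at percentile 37.5.

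**Figure D1:**
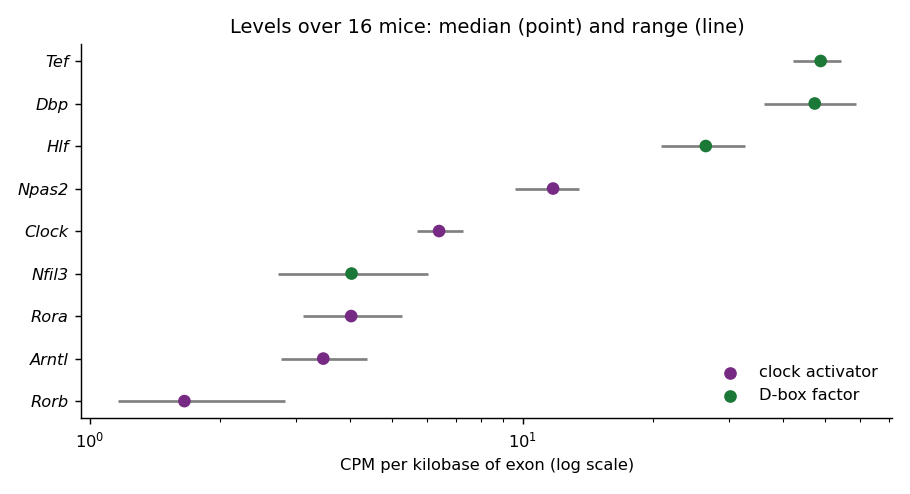
Level of each member in CPM per kilobase of exon on a log axis, with the median of 16 mice as a point and the range as a line. Tef and Dbp lie highest, Rorb lowest, and the lines of Nfil3, Rora and Arntl overlap.

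With evacetrapib, the estimates of the 2 sets lay on opposite sides of 0. Over all 16 mice, 5 of 5 clock activators had a higher estimate with evacetrapib, and 3 of 4 D-box factors a lower one, with Nfil3 the exception. No member was called: adjusted p was 0.216 for Dbp, 0.231 for Arntl, 0.267 for Npas2 and 0.295 for Tef. Among all genes 0.0107% were called in this comparison. An unadjusted p below 0.05 was reached by 6 of 9 members, against 7.91% of all genes. The members and lists were chosen with earlier results of these data known, and all were measured in the same 16 mice. Such counts are therefore descriptions with no test. DESeq2's Wald test on the same counts called 2 members, Arntl and Dbp, and 0.344% of the genes for which it gave an adjusted p.

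Arntl encodes the obligate partner of the activating pair. In CETPtg mice it measured 23.1, 21.7, 23.0 and 26.1 CPM with vehicle, and 32.0, 24.1, 26.0 and 32.8 CPM with evacetrapib. Among APPtg/CETPtg mice the values were 23.1, 20.8, 25.5 and 29.7 CPM with vehicle and 31.9, 30.7, 29.5 and 29.1 CPM with evacetrapib. The treated mice lay higher on average in both genotypes, but the ranges of vehicle and treated mice overlapped in each. The log2 fold change over all mice was 0.29 ± 0.071 (SE), with an unadjusted p of 0.000694, ranked 56 of 18609. It was 0.29 among CETPtg and 0.28 among APPtg/CETPtg mice. Between these effects the difference was -0.01, with a 95% interval from -0.32 to 0.29.

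Npas2 and Clock encode the partners of ARNTL. Npas2 measured 47.5 to 49.8 CPM in CETPtg vehicle mice and 54.8 to 64.5 CPM with evacetrapib, and these ranges did not overlap. They did overlap in APPtg/CETPtg mice, at 46.0 to 59.4 CPM with vehicle and 55.9 to 64.3 CPM with evacetrapib. Its log2 fold change over all mice was 0.20 ± 0.052 (SE), with an unadjusted p of 0.00111. Clock showed a log2 fold change of 0.05, and its 95% interval from -0.04 to 0.14 included 0. Clock ranged from 83.2 to 99.9 CPM in treated and 83.5 to 97.8 CPM in vehicle CETPtg mice.

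Rorb and Rora encode nuclear receptors that act on the Arntl promoter. Rorb had 18.8, 17.9, 19.0 and 19.3 CPM in CETPtg vehicle mice and 31.2, 22.2, 24.3 and 19.7 CPM with evacetrapib. Every treated CETPtg mouse was above every vehicle one, with replicate A far above the rest at 31.2 CPM. The ranges of APPtg/CETPtg mice overlapped, at 12.9 to 16.9 CPM with vehicle and 13.3 to 21.0 CPM with evacetrapib. The log2 fold change of Rorb over all mice was 0.26 ± 0.095 (SE), with an unadjusted p of 0.0138 (adjusted p 0.508). Its estimate of 0.12 in APPtg/CETPtg mice became -0.01 without APPtg/CETPtg evacetrapib replicate F. Rora differed by 0.09 on the log2 scale over all mice, and its 95% interval from -0.01 to 0.20 included 0.

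Dbp, the albumin D-box binding protein and a standard output gene of the clock, had the smallest p among the members for evacetrapib over all mice. It measured 152, 160, 152 and 156 CPM in CETPtg vehicle mice and 108, 139, 159 and 112 CPM with evacetrapib. Its APPtg/CETPtg values were 176, 115, 144 and 149 CPM with vehicle and 112, 118, 109 and 109.6 CPM with evacetrapib. CETPtg vehicle and APPtg/CETPtg evacetrapib mice were close together, with coefficients of variation of 2.42% and 3.56%, while those of the other 2 groups were 18.4% and 17.2%. The ranges of vehicle and treated mice overlapped in both genotypes, since a treated CETPtg mouse reached 159 CPM and a vehicle APPtg/CETPtg mouse had 115 CPM. The log2 fold change over all mice was -0.32 ± 0.077 (SE), with an unadjusted p of 0.00051, ranked 44 of 18609. The estimate for CETPtg mice was -0.26, that for APPtg/CETPtg mice -0.38, and their difference was -0.12 with a 95% interval from -0.44 to 0.20.

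Tef had 385 to 418 CPM in CETPtg vehicle mice and 352 to 412 CPM with evacetrapib, and these ranges overlapped. Tef of APPtg/CETPtg mice was at 427, 416, 409 and 382 CPM with vehicle and 356, 381, 330.2 and 359 CPM with evacetrapib. There each treated mouse was below each vehicle mouse, although the nearest pair, 381 and 382 CPM, lay close together. The log2 fold change over all mice was -0.14 ± 0.039 (SE), with an unadjusted p of 0.00168. Hlf gave -0.12 ± 0.055 (SE) over all mice, with an unadjusted p of 0.0381. In CETPtg mice alone the estimate of Hlf was -0.03, and it became 0.01 or 0.02 without CETPtg evacetrapib replicate B or D. Nfil3, the D-box repressor, gave 0.10 with a 95% interval from -0.14 to 0.34, and its values overlapped in both genotypes.

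**Figure D2:**
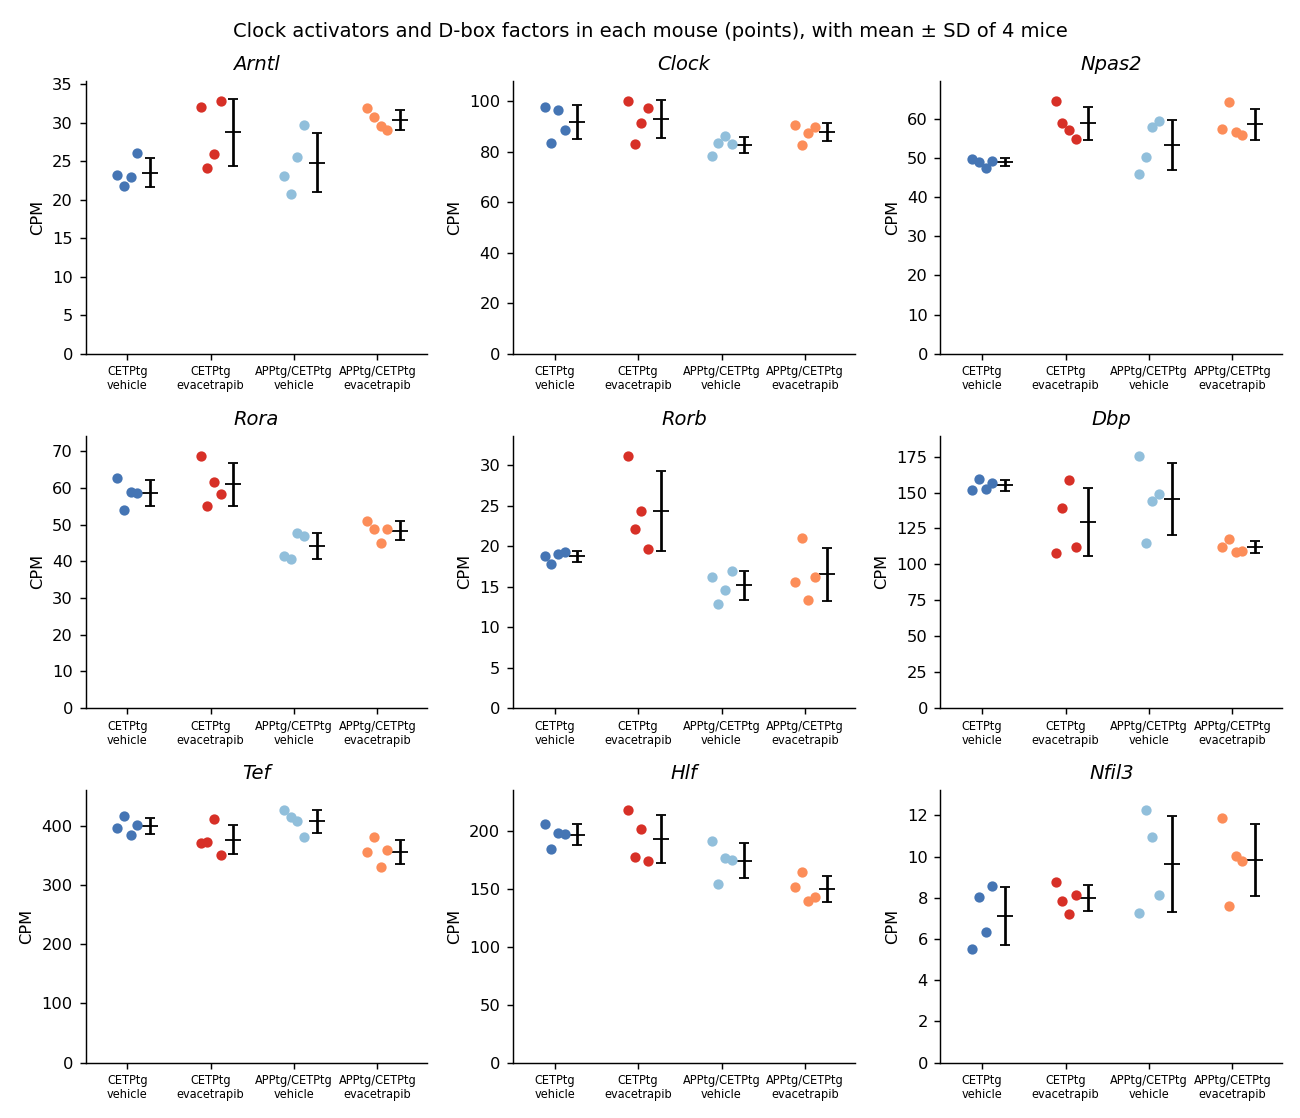
CPM of each member in each of the 16 mice by group, with the mean and SD of 4 mice beside the points. Rorb and Npas2 of treated CETPtg mice lie above all vehicle CETPtg mice, Tef of treated APPtg/CETPtg mice lies below all vehicle ones, and Rora of every APPtg/CETPtg mouse lies below every CETPtg mouse.

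Within each genotype the comparison of 4 against 4 mice called no member by edgeR's quasi-likelihood test. In CETPtg mice 0% of all genes were called, and 4 of 9 members (Arntl, Npas2, Rorb and Dbp) had an unadjusted p below 0.05, against 5.8% of all genes. The same test called 0.043% of genes in APPtg/CETPtg mice, and 4 of 9 members (Arntl, Dbp, Tef and Hlf) had an unadjusted p below 0.05, against 9.01% of all genes. Npas2 and Rorb did not overlap between treatments in CETPtg mice, where this held for 3.92% of genes, and Tef did not in APPtg/CETPtg mice, where it held for 4.29%. Over all mice, 8 against 8, the treatments overlapped for every member, and 0.0537% of genes did not overlap. The difference of the evacetrapib effect between the genotypes was called for 0 members and 0% of genes, and had an unadjusted p below 0.05 for 0 members and 6.83% of genes. DESeq2's Wald test and limma-voom also called 0 members for that difference. The widest 95% interval of this difference was that of Nfil3, from -0.62 to 0.35, followed by Rorb, from -0.65 to 0.13, and that of Hlf ran from -0.41 to 0.03.

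**Figure D3:**
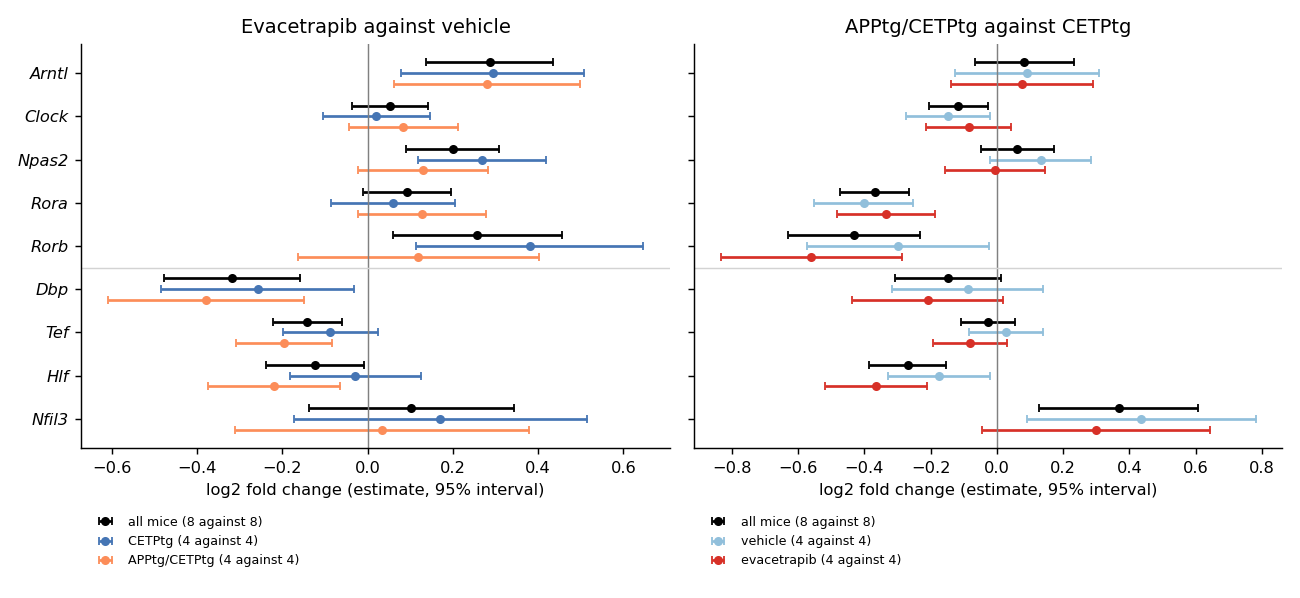
Log2 fold change of each member with its 95% interval, for evacetrapib against vehicle (left) and APPtg/CETPtg against CETPtg (right), over all mice and within each stratum. On the left the activators lie right of 0 and Dbp, Tef and Hlf left of 0 in each stratum, and on the right Rora, Rorb and Hlf lie left of 0 and Nfil3 right of 0.

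The sets were also set against each other in each mouse, as the mean log2 CPM of the 4 D-box factors minus that of the 5 activators, which is a description with no test. In CETPtg mice this difference was 1.11 to 1.37 with vehicle and 0.80 to 1.11 with evacetrapib, and the ranges met without overlapping (1.113 against 1.108). APPtg/CETPtg mice had 1.21 to 1.52 with vehicle and 0.97 to 1.13 with evacetrapib. How often other sets of genes failed to overlap was not examined. The group means of treated minus vehicle mice differed by -0.25 for CETPtg and -0.34 for APPtg/CETPtg. Taken alone, the mean of the activators did not overlap between treatments in CETPtg mice (5.27 to 5.40 against 5.42 to 5.75), and that of the D-box factors did not in APPtg/CETPtg mice (6.57 to 6.69 against 6.40 to 6.53). Without Nfil3, the mean of Dbp, Tef and Hlf overlapped between treatments in both genotypes. In APPtg/CETPtg mice it was 7.603 to 7.924 with vehicle and 7.419 to 7.604 with evacetrapib. That mean minus the mean of the activators did not overlap in either genotype. The difference of log2 CPM between Dbp and Arntl alone was 2.58 to 2.87 in CETPtg vehicle mice and 1.75 to 2.61 with evacetrapib, and these ranges overlapped. The APPtg/CETPtg mice had 2.32 to 2.92 with vehicle and 1.81 to 1.94 with evacetrapib.

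**Figure D4:**
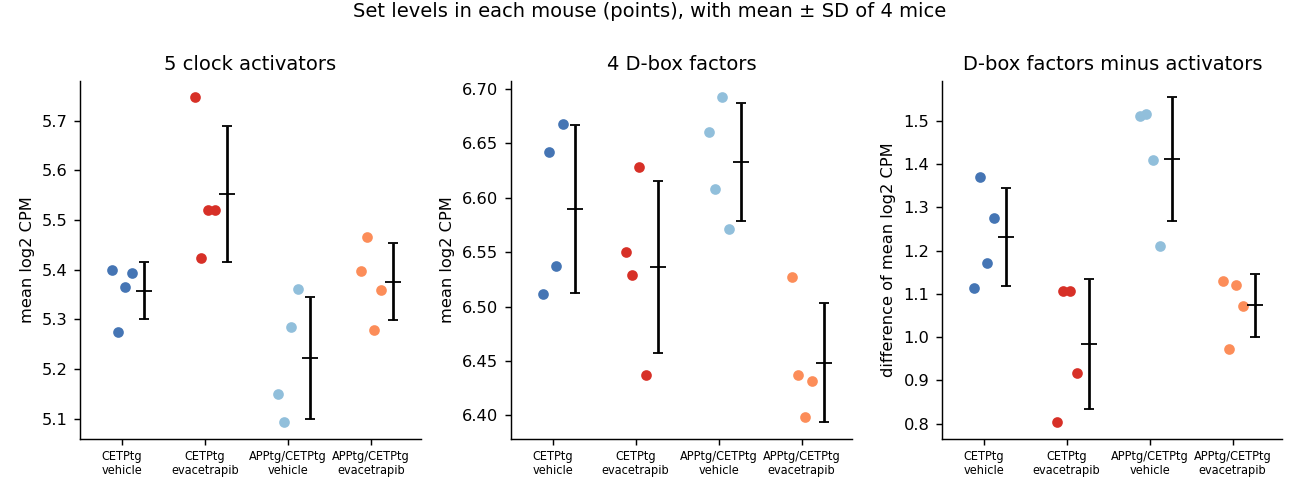
Mean log2 CPM of the 5 clock activators, of the 4 D-box factors, and the second minus the first, in each mouse with the mean and SD of 4 mice. The difference is lower in treated mice of both genotypes without overlap, at 0.80 to 1.11 against 1.11 to 1.37 in CETPtg and 0.97 to 1.13 against 1.21 to 1.52 in APPtg/CETPtg mice. The CETPtg ranges nearly touch, with 1.108 as the highest treated and 1.113 as the lowest vehicle value.

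The other genes of the loop were given by lists. Of 10 clock repressors (Per1, Per2, Per3, Cry1, Cry2, Nr1d1, Nr1d2, Bhlhe40, Bhlhe41 and Ciart), 10 had a lower estimate with evacetrapib over all mice, 9 had an unadjusted p below 0.05 and 1 was called. The median of their log2 fold changes was -0.23, against -0.0015 over all genes tested and 0.20 over the clock activators. The called gene was Bhlhe41, which encodes an E-box repressor and fell by 0.39 on the log2 scale (adjusted p 0.0233). It was called in 6 of 16 fits that each left out 1 mouse (CETPtg evacetrapib A or C, CETPtg vehicle S2 or S4, APPtg/CETPtg vehicle S6 or S8) and in none of the other 10, with adjusted p from 0.00342 to 0.126. Over all 26 alternative settings, these fits included, Bhlhe41 was called in 15. Its adjusted p was 7.62e-06 in DESeq2's Wald test and 0.299 in edgeR's test with no genotype term. Of 9 clock protein kinases and ubiquitin ligases, 3 were higher and 6 lower with none called, at a median of -0.05. Timeless gave 0.19 and Arntl2, a relative of Arntl, gave -0.16, and neither was called.

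Marker lists were read beside these results. Endothelial markers, with 0 of 6 genes called over all mice, summed to 157 to 190.4 CPM in vehicle and 189 to 220.2 CPM in treated CETPtg mice, and to 139 to 192 and 191 to 236 CPM in APPtg/CETPtg mice. Vascular smooth muscle markers summed to 30.2 to 37.8 and 36.3 to 48.0 CPM in CETPtg mice, and to 26.3 to 37.0 and 40.6 to 47.3 CPM in APPtg/CETPtg mice, with 1 of 5 genes called higher over all mice. Immediate early genes, which respond to neuronal activity, summed to 885 to 1185 CPM in vehicle and 305 to 738 CPM in treated APPtg/CETPtg mice, with 2 of 10 called lower. In CETPtg mice that sum was 481 to 722 CPM with vehicle and 618 to 864 CPM with evacetrapib, and none was called. Markers of the suprachiasmatic nucleus and hypothalamus, of which 5 of 9 passed the filter, summed to 22.8 to 143 CPM in vehicle and 24.8 to 39.4 CPM in treated mice, which overlapped, with none called. Lists of other regions varied widely between mice. Olfactory bulb markers summed to 75.5 to 172 CPM with vehicle and 42.6 to 180 CPM with evacetrapib in CETPtg mice. In APPtg/CETPtg mice they summed to 21.1 to 202 and 38.1 to 211 CPM. Choroid plexus markers summed to 10.1 to 162 and 13.3 to 120 CPM in CETPtg mice, and to 11.2 to 460 and 11.9 to 26.0 CPM in APPtg/CETPtg mice. None of either list was called over all mice. No gene of these lists was at 0 in all 16 mice, and their part in the results on the members was not tested.

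Between genotypes, Rora, Rorb and Hlf were lower and Nfil3 higher in APPtg/CETPtg than in CETPtg mice over all 16 mice. These 4 of 9 members were called, against 17.7% of all genes. For Rora the log2 fold change was -0.37 ± 0.050 (SE, adjusted p 8.17e-05), for Rorb -0.43 ± 0.095 (SE, adjusted p 0.00405), for Hlf -0.27 ± 0.055 (SE, adjusted p 0.00235) and for Nfil3 0.37 ± 0.115 (SE, adjusted p 0.0323). The other 5 members were not called, with Clock at -0.12 and an adjusted p of 0.0629. Clock was called in 7 of 27 alternative settings, among them the fits without CETPtg evacetrapib replicate B (adjusted p 0.0133), APPtg/CETPtg evacetrapib replicate E (0.0427) or CETPtg vehicle replicate S2 (0.0348).

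Rora measured 62.6, 54.0, 59.0 and 58.7 CPM in CETPtg vehicle mice and 41.5, 40.7, 47.7 and 46.9 CPM in APPtg/CETPtg vehicle mice. With evacetrapib it measured 68.8, 55.0, 61.6 and 58.5 CPM in CETPtg and 51.0, 48.8, 44.9 and 48.7 CPM in APPtg/CETPtg mice. Every APPtg/CETPtg mouse was below every CETPtg mouse, and 3.03% of genes did not overlap between the genotypes over all mice, in either direction. Rorb and Rora did not overlap between genotypes under vehicle, where 17% of genes did not, and Rora and Hlf did not under evacetrapib, where 10.8% did not. Hlf had 139 to 164 CPM in treated APPtg/CETPtg mice against 173 to 218 CPM in treated CETPtg mice. Under vehicle its ranges were 154 to 191 and 184 to 206 CPM, and overlapped. Nfil3 had the lowest counts of the members, 160 to 454 per mouse, and overlapped between genotypes under both treatments.

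Under vehicle alone Rora was called (-0.40, adjusted p 0.00243), 1 of 9 members against 10.4% of all genes. Under evacetrapib alone Rora (-0.33, adjusted p 0.0171), Rorb (-0.56, adjusted p 0.0279) and Hlf (-0.37, adjusted p 0.0141) were called, 3 of 9 against 2.99%. Without CETPtg evacetrapib replicate A none of these 3 was called under evacetrapib, with adjusted p of 0.0767, 0.117 and 0.0642. Rorb also lost its call there without CETPtg evacetrapib replicate C or APPtg/CETPtg evacetrapib replicate E, G or H (adjusted p 0.0572 to 0.0742). Nfil3 was called over all mice in 10 of 16 fits that left out 1 mouse, and lost its call without CETPtg evacetrapib replicate C, APPtg/CETPtg evacetrapib replicate E, CETPtg vehicle replicate S1 or S3, or APPtg/CETPtg vehicle replicate S6 or S7 (adjusted p 0.0571 to 0.0772).

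Transcript length and base composition moved with the genotype difference. Across 18583 genes the genotype log2 fold change had a Spearman's rho of -0.32 with exon length and 0.38 with GC content, whereas the evacetrapib fold change had 0.02 and 0.03. All genes of a mouse share its library, so these are descriptions. Clock, Rora and Rorb lie in the top quintile of exon length and the bottom quintile of GC content, and in that length quintile 24.9% of genes were called lower and 1.78% higher. Counted from the lowest, Nfil3 lies in quintile 2 of length (13.4% called higher, 1.99% lower) and 4 of GC (14.3% higher, 3.2% lower). Hlf lies in quintile 4 of length (9.32% called lower, 6.06% higher) and 2 of GC (10.9% lower, 3.71% higher). With a trend on length and GC removed from each library, an alternative chosen after the data were seen, Rora (-0.17, adjusted p 0.00927) and Hlf (-0.20, adjusted p 0.0313) were called over all mice, against 8.65% of genes. Rorb (-0.26, adjusted p 0.0985) and Nfil3 (0.30, adjusted p 0.119) were not, and Clock changed sign to 0.08. Under vehicle no member was then called, against 4.7% of genes, with Rora at -0.17 and an adjusted p of 0.0831. Under evacetrapib Hlf was called (-0.31, adjusted p 0.0468), 1 member against 0.661% of genes.

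**Figure D5:**
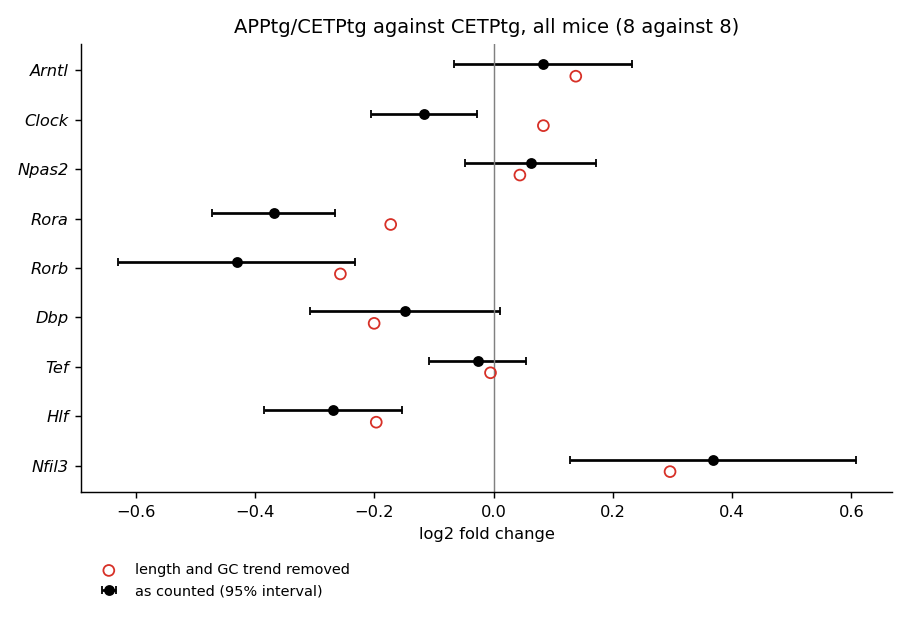
Log2 fold change of each member between APPtg/CETPtg and CETPtg mice over all 16 mice, as counted with its 95% interval (filled) and with the trend on exon length and GC content removed (open). Rora, Rorb and Hlf move toward 0, and Clock moves from -0.12 to 0.08.

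Marker lists also differed between genotypes. Rora and Rorb are known for expression in thalamus and in layer 4 of the cortex, and Rorb also in astrocytes. Astrocyte markers summed to 2550 to 2729 CPM in CETPtg and 1836 to 2330 CPM in APPtg/CETPtg vehicle mice, and to 2628 to 3002 and 2319 to 2522 CPM with evacetrapib, with 2 of 6 called lower over all mice and 4 of 6 under vehicle. Thalamic markers summed to 109.8 to 142 CPM in CETPtg and 86.1 to 123 CPM in APPtg/CETPtg vehicle mice, and to 112 to 121 and 84.2 to 115 CPM with evacetrapib, with 3 of 8 called lower over all mice. Layer 4 markers summed to 183 to 221 and 181 to 198 CPM under vehicle and to 190.4 to 213 and 172 to 186 CPM under evacetrapib, with 1 of 5 called lower. Lists of other cells had calls over all mice as well. Lower calls were made for 3 of 6 oligodendrocyte and 2 of 7 tested hippocampal markers, and 3 of 6 microglia markers were called higher. Of 8 cortical neuron markers, 1 was called higher and 1 lower, and of 8 striatal markers 1 was called lower. Higher calls were made for 1 of 6 neuron markers and 1 of 5 tested suprachiasmatic and hypothalamic markers. Of 10 immediate early genes, 5 were called higher under vehicle, and 1 lower under evacetrapib against 2.99% of all genes. Among all genes 17.7% were called between genotypes over all mice and 10.4% under vehicle. No gene of these lists was at 0 in all 16 mice. Their part in the lower Rora, Rorb and Hlf was not tested. Among the other clock genes, 3 of 10 repressors were called lower over all mice: Bhlhe41 at -0.27, Nr1d2 at -0.21 and Per3 at -0.20. Of the kinases and ligases, 1 of 9 was called lower, Gsk3b at -0.27. With the trend on length and GC removed, Nr1d2 (adjusted p 0.0751) and Per3 (adjusted p 0.0811) were no longer called.

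How the members varied among mice of the same group was described by Pearson's r over 16 mice, on log2 CPM with the 4 group means removed and over the other 18608 genes. These values are the extremes of many and have no p. The genes with the highest r to Dbp were Epha8 (0.90), H2-DMa (0.90), Galk1 (0.89), Ankrd24 (0.89) and Vwa5b2 (0.89), and those with the lowest were A930029G22Rik (-0.94), Setbp1 (-0.90) and Snx3 (-0.90). Without the 2 mice farthest from the median of Dbp (A and G) these r were between 0.88 and 0.91 and between -0.96 and -0.88. Those 2 mice were chosen before the group means were removed, so mice far from their own group mean could remain. Spearman's rho to Dbp was 0.71 for Epha8, 0.91 for H2-DMa, 0.76 for Galk1, 0.94 for Ankrd24 and 0.84 for Vwa5b2. It was -0.81 for A930029G22Rik, -0.81 for Setbp1 and -0.78 for Snx3. The highest for Arntl were Rps15a (0.88), Gm32592 (0.87), Rnf180 (0.87), Lepr (0.82) and Svip (0.82), and the lowest were Lzts2 (-0.89), Ube4b (-0.88) and Efr3b (-0.88). Gm32592, at a median of 0.287 CPM, is a low-count gene.

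Members were not among those extremes. The nearest to Dbp was Tef (r 0.49, rank 1741), followed by Hlf (0.37, rank 3060), Rorb (0.21, rank 5514), Rora (-0.13, rank 11379) and Npas2 (-0.15, rank 11790). Further down were Arntl (-0.21, rank 12812), Nfil3 (-0.55, rank 17193) and Clock (-0.56, rank 17314). The order changed with few mice: without the 2 mice farthest from the median of Dbp, r was 0.68 for Hlf, 0.55 for Rorb and 0.51 for Tef, and it was 0.06 for Rora, -0.02 for Npas2 and -0.11 for Arntl. Among the repressors, Nr1d1 (0.85, rank 26) and Ciart (0.82, rank 42), named after their values were seen, stood closer to Dbp. The nearest member to Arntl was Rora (0.64, rank 220), followed by Clock (0.47, rank 1173), Npas2 (0.46, rank 1217), Rorb (0.34, rank 2731) and Hlf (0.31, rank 3118). Nfil3 (-0.01, rank 9568), Dbp (-0.21, rank 13957) and Tef (-0.49, rank 17630) had an r below 0. Without the 2 mice farthest from the median of Arntl, that of Nfil3 turned to 0.19, that of Dbp was -0.50 and that of Tef -0.41.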

How the data were processed

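Per the labels, libraries were strand-specific and made from poly(A) RNA. The authors trimmed reads (Trimmomatic 0.39), aligned them to mm10 (STAR 2.7.8a), marked duplicates (Picard 2.0.1) and deposited raw counts per gene from HTSeq-count. The strand setting and annotation of the counting are not given in the sources used here. Exon lengths, GC content and gene positions were taken from GENCODE M21 (GRCm38) and start sites from RefSeq. Groups followed the labels. A gene was kept if 4 or more mice had 10 or more counts, and was tested with edgeR 4.0.16 (R 4.3.3; TMM, glmQLFit and glmQLFTest), with Benjamini-Hochberg adjustment over all 18609 genes. Main effects came from a model with genotype and treatment, and the others from contrasts of 4 group means. CPM used TMM library sizes, and log2 CPM a prior count of 2. The code was tested on simulated data.

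The members and lists were chosen with earlier results of these data known. From the 3 lists of other clock genes, those called in a comparison are named, or the 3 with the smallest p of a list with no call. 1 gene of these lists is not reported here. Marker lists are given as sums and counts. The 5 highest and 3 lowest genes in r with Dbp or Arntl are also named. The r of Nr1d1 and Ciart with Dbp were singled out after their values were seen. On the index plate, rows separated the treatments and columns the genotypes, so that plate position and group cannot be told apart. Mice of a group differed by 4.59 to 20.6 times the counting noise (chi-square over its degrees of freedom). Alternatives included DESeq2 1.42.0 and limma-voom (limma 3.58.1).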

Additional observations from a re-analysis of the deposited data

How the results depend on the processing

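Leaving out each mouse in turn, other size factors, limma-voom, stricter filtering and the absence of a fold change minimum left 0 members called for evacetrapib over all mice. DESeq2's Wald test called 2 there (Arntl, adjusted p 0.0382, and Dbp, adjusted p 0.0265), against 0.344% of genes. With no filter on low counts 1 was called (Dbp, adjusted p 0.0169), against 0.101% of genes. With no filter 1 (Dbp) was also called for evacetrapib in APPtg/CETPtg mice, against 0.253% of genes. Over all settings the adjusted p ranged from 0.0382 to 0.439 for Arntl and from 0.0169 to 0.416 for Dbp, and no member reversed for evacetrapib over all mice. For genotype under vehicle, DESeq2's Wald test called 2 members (Rora and Nfil3), against 18.4% of the genes for which it gave an adjusted p. The same 2 were called with no filter, against 4.81% of genes, and at an adjusted p of at most 0.1, against 16.2%. With the 8 mice compared alone 2 were called (Rora and Rorb), against 8.52% of genes. With the 8 treated mice alone, Rorb lost its genotype call under evacetrapib (-0.56, adjusted p 0.0649). Clock gained a genotype call over all mice with DESeq2's Wald test (adjusted p 0.035), with at least 10 counts in every mouse (0.0499) and at an adjusted p of at most 0.1. With the trend on length and GC removed, 2 members were called for genotype over all mice, 0 under vehicle and 1 under evacetrapib. That setting turned Clock to 0.0836 over all mice, 0.0888 under vehicle and 0.0784 under evacetrapib, and for the difference of the evacetrapib effect to -0.0104, as it did Rora there (-0.0021). The cause was not tested.

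Leaving out 1 mouse, the members called for genotype ranged from 3 to 5 over all mice and from 0 to 3 under evacetrapib. Log2 fold changes that changed sign in at least 1 such fit were, in CETPtg mice with evacetrapib, Clock (-0.0158 to 0.0757), Rora (-0.0033 to 0.11) and Hlf (-0.0912 to 0.018). In APPtg/CETPtg mice they were Rorb (-0.0114 to 0.21) and Nfil3 (-0.0689 to 0.17). For genotype they were Arntl (-0.019 to 0.16) and Dbp (-0.19 to 0.0025) under vehicle and Arntl (-0.0013 to 0.14) and Npas2 (-0.0568 to 0.0376) under evacetrapib, and for the difference of effects Arntl (-0.093 to 0.0959). None of these had been called.

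No label says what the numbers 1 to 4 in the header of the table mean. The deviations from group means had r of -0.20 to 0.17 between mice of the same number and -0.23 to 0.23 between mice of different numbers. Such r cannot settle whether the numbers pair mice. With a replicate block on these numbers, an alternative chosen after the data were seen, calls over all genes went from 2 to 3 for evacetrapib, Nfil3 lost its genotype call (adjusted p 0.051), Clock gained one (adjusted p 0.048), and Arntl in the difference of effects turned to 0.0113. Nfil3 had the lowest depth of the members, 160 to 454 counts per mouse, and the share of its error that comes from depth was not tested.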
